A study of Arabidopsis thaliana with 6 samples.

Results

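Wide domains of histone H3 lysine 27 trimethylation (H3K27me3) were taken as the entries of the deposited domain list that spanned 3000 bases or more, which gave 875 of 15863 domains. They made up 5.52% of the list by number and 20.3% of its bases, 3.65 of 18 Mb. The domains came from young leaves of untreated, non-transgenic *Arabidopsis thaliana* plants of the accession Columbia-0 (Col0), raised on soil at 22.5 °C with a short photoperiod (8 h of light, 16 h of darkness). The series holds 6 samples of this material: 2 chromatin immunoprecipitation (ChIP) samples for H3K27me3, 2 for H3K4me3, 1 input DNA sample and 1 mRNA sample. The files used here give 1 domain list per mark and 1 mRNA value per gene, so no spread between replicates can be given, the read depth of the ChIP libraries is unknown, and none of the differences below was tested. Intervals are 95% exact Clopper-Pearson intervals, which cover counting error over domains or genes only.

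H3K27me3 is placed by Polycomb Repressive Complex 2 and is kept through cell division, so that genes for other organs or stages stay silent in a differentiated tissue. In plants the mark usually lies over single genes rather than over long chromosome stretches as in animals. A domain of several kilobases can hold a gene with its flanks or a run of neighbouring genes. H3K4me3 marks the start of transcribed genes and was not used in choosing the domains, nor was the mRNA.

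The widths had a median of 3600 bases with quartiles of 3300 and 4500. Domains of 6000 bases or more numbered 84, those of 10000 or more numbered 10, and the widest reached 24900. Widths came in steps of 300 bases, and the limit of 3000 cut through a continuous range. Just inside it lay 201 domains of 3000 bases and just outside 307 of 2700 bases. A protein-coding gene was present in 84.1% of the former and 85.7% of the latter, and the median score per base of the authors' list was 1.37 and 1.42. Many members had a close neighbour, and for 429 wide domains (49.0%) another H3K27me3 domain lay only 300 bases away, beside 38.3% of the domains of 900 to 2700 bases. Joining such neighbours gave 1557 domains of 3000 bases or more, of which 835 held a wide domain of the list as deposited.

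**Figure D1:**
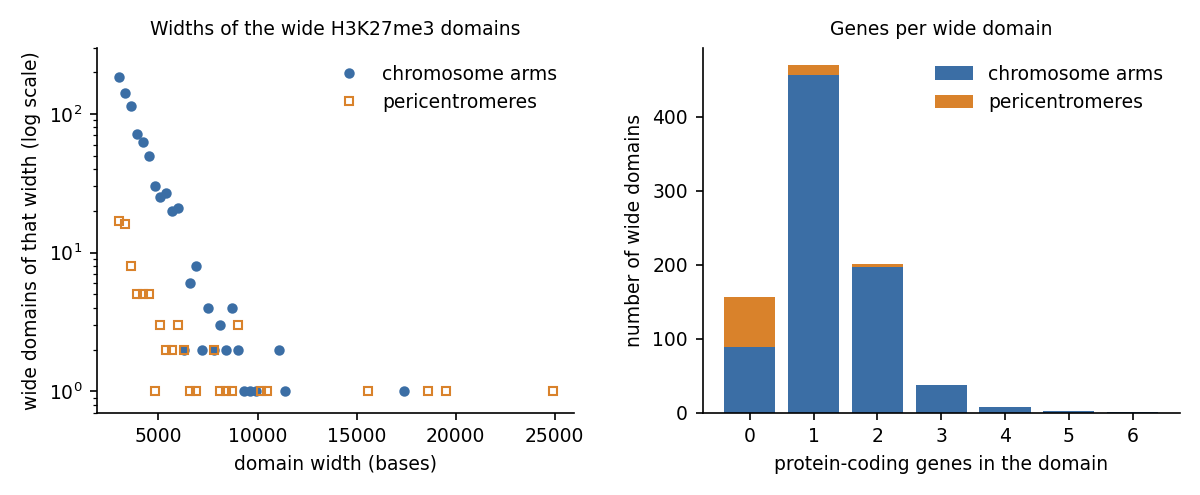
Number of wide H3K27me3 domains at each width (left, log axis) and by the number of protein-coding genes they held (right), split into chromosome arms (790 domains) and pericentromeres (85). Widths fall off steeply from 3000 bases, and 67 of the 85 pericentromeric domains hold no gene.

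Wide domains were found on every chromosome, with 234 on chromosome 1, 130 on chromosome 2, 182 on chromosome 3, 114 on chromosome 4 and 215 on chromosome 5. Per Mb these were 7.69, 6.60, 7.76, 6.13 and 7.97. Pericentromeres were defined as 500 kb bins with under 30% of their bases in protein-coding gene bodies, which made up 17.2% of the 119.14 Mb spanned. They held 85 wide domains, 9.71% (7.83 to 11.9) of the members. Over all H3K27me3 domains the share was 17.5%, and among domains of 300 to 600 bases it was 22.2%. The pericentromeric members had a median width of 3900 bases, beside 3600 in the arms, and took 6 of the 10 highest widths.

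Of the 10 widest members, 6 held no protein-coding gene. On chromosome 1 a domain of 24900 bases (chr1:15114001-15138900, TAIR10) held no annotated locus, and one of 10500 bases (chr1:15098701-15109200) lay close by. On chromosome 4, outside the bins counted as pericentromeric, domains of 17400 and 9900 bases (chr4:2920501-2937900 and chr4:2947201-2957100) likewise held none. Scores per base were 0.91 and 1.1 for the domains on chromosome 1 and 1.03 and 1.11 for those on chromosome 4. The medians were 1.2 for pericentromeric members and 1.47 in the arms. Each of these domains had another H3K27me3 domain 300 bases away. Other gene-free members of the 10 widest had scores per base of up to 1.77. Of the 67 pericentromeric domains without a protein-coding gene, 45 held an annotated pseudogene and 20 held no annotated locus. Their median score per base was 1.15. In the arms it was 1.5 for domains with a gene and 1.22 for the 89 without. The input DNA values are not in the files used here, so the part of the input signal in these gene-free domains was not tested.

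Most wide domains held genes. A gene counted as lying under a domain when 150 or more of its bases, or its whole length where it was shorter, fell inside the domain. At least 1 protein-coding gene lay under 719 of the 875 domains (82.2%, 79.5 to 84.7). The share was 68.3% for domains of 900 to 2700 bases and 59.6% for all H3K27me3 domains, most of which are shorter. By bases, protein-coding bodies took 48.7% of the wide domains, 59.2% of domains of 900 to 2700 bases and 54.1% of the span. A single gene was found in 470, 2 genes in 201 and 3 or more in 48. Altogether 1026 genes lay under wide domains, 3.74% of the 27444 protein-coding genes, and 567 of them (55.3%) had their whole body inside. The genes were not long, with a median of 1772 bases against 2078 for all protein-coding genes. In domains with 1 gene the body filled a median of 60.4% of the domain, and 1432 bases lay outside it.

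The domain with the most genes spanned 11100 bases on chromosome 3 (chr3:5999701-6010800) and covered 6 consecutive loci, AT3G17520 to AT3G17570. None of the 6 was listed in the mRNA table. A second domain of 11100 bases (chr2:9371401-9382500) covered 5 genes, among them RALFL15, which encodes a RALF-like signalling peptide, and again none was listed. A domain of 9000 bases (chr3:21763801-21772800) held 5 unlisted genes as well, and one of 9600 bases (chr1:23431501-23441100) held 4. Another of the 8 domains with 4 genes, 7800 bases wide (chr3:3050701-3058500), held IPS1, a phosphate starvation transcript that sequesters the microRNA miR399. IPS1 is among the 4 because the annotation used types it as protein-coding, which was not checked. Of the 4 genes of this domain only MDHAR, a monodehydroascorbate reductase gene, was listed, at an mRNA depth of 1.02. Over all 249 domains with 2 or more genes, 156 held no listed gene, 74 held listed and unlisted genes, and 19 held listed genes only. The listed share was 23.4% for genes of domains with 2 genes and 12.6% with 3 or more, beside 72.9% of all protein-coding genes. The number of domains without a listed gene that these shares alone would give, and that for narrower domains, are not given here. Whether genes of 1 domain are unlisted together was therefore not tested.

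The edges of the wide domains were set against gene bodies next. In the arms 507 of 1580 edges (32.1%, 29.8 to 34.5) were inside a protein-coding body, compared with 48.2% (47.3 to 49.0) for domains of 900 to 2700 bases. Protein-coding bodies make up 54.1% of the whole span, which includes the pericentromeres, and the value for the arms alone was not computed. The next H3K4me3 domain outside an edge was a median of 4050 bases away for wide domains and 4200 for the narrower ones. The first genes wholly beyond the edges and under no wide domain numbered 1384, of which 654 (47.3%) carried H3K27me3 in a narrower domain. The share was 45.6% beyond domains of 900 to 2700 bases and 31.0% over all protein-coding genes. Of the 730 without H3K27me3, 93.0% (90.9 to 94.8) were listed in the mRNA table. The same share was 87.9% (87.0 to 88.8) beyond domains of 900 to 2700 bases, and 87.9% over all genes without H3K27me3 outside pericentromeres.

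Few genes under wide domains had measurable mRNA. The table gives a mean depth of reads over the exons of each gene, with 1 as its lowest value, and a gene that is absent from it has no stated depth. Of the 1026 genes, 256 were listed (25%, 22.3 to 27.7), against 72.9% of all protein-coding genes. Genes under narrower H3K27me3 domains only were listed in 45.9% of cases (3429 of 7473). Where listed, the genes under wide domains had a median depth of 1.54 with quartiles of 1.00 and 3.6, and 73 (28.5%) stood at exactly 1, beside 7.18% of all listed protein-coding genes. The medians were 2.30 for genes under narrower domains only and 8.05 for genes without H3K27me3. Cover of the gene body was not matched between these groups. A depth of 10 or more was reached by 38 of the 1026 genes (3.70%), by 10.8% of the genes under narrower domains only and by 28.3% of all genes. Many listed values were near the lowest, and a depth of 2 or more was reached by 104 of the 1026 genes (10.1%), against 58.0% of all genes. In a whole leaf, fewer cells that express a gene and less RNA per cell cannot be told apart.

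The share of listed genes was lower in wider domains. It was 56.1% for genes under domains of 300 to 600 bases and 40% for those of 900 to 2700. From 3000 to 3300 bases it was 26.4%, from 3600 to 4500 it was 28.6%, from 4800 to 6000 it was 17.8%, and above 6000 it was 17.0% (10.1 to 26.2). The intervals of neighbouring classes from 3000 to 4500 bases, and again above 4500, overlapped. At the limit itself, genes under domains of 2700 bases were listed in 32.2% (27 to 37.6) and those under domains of 3000 bases in 25.6% (19.8 to 32.2) of cases. By gene number, the share was 30.2% where the domain held 1 gene, 23.4% with 2 and 12.6% (7.86 to 18.8) with 3 or more. The last group came from 48 domains, and genes of the same domain are not independent. Gene length and cover were not matched between these groups.

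**Figure D2:**
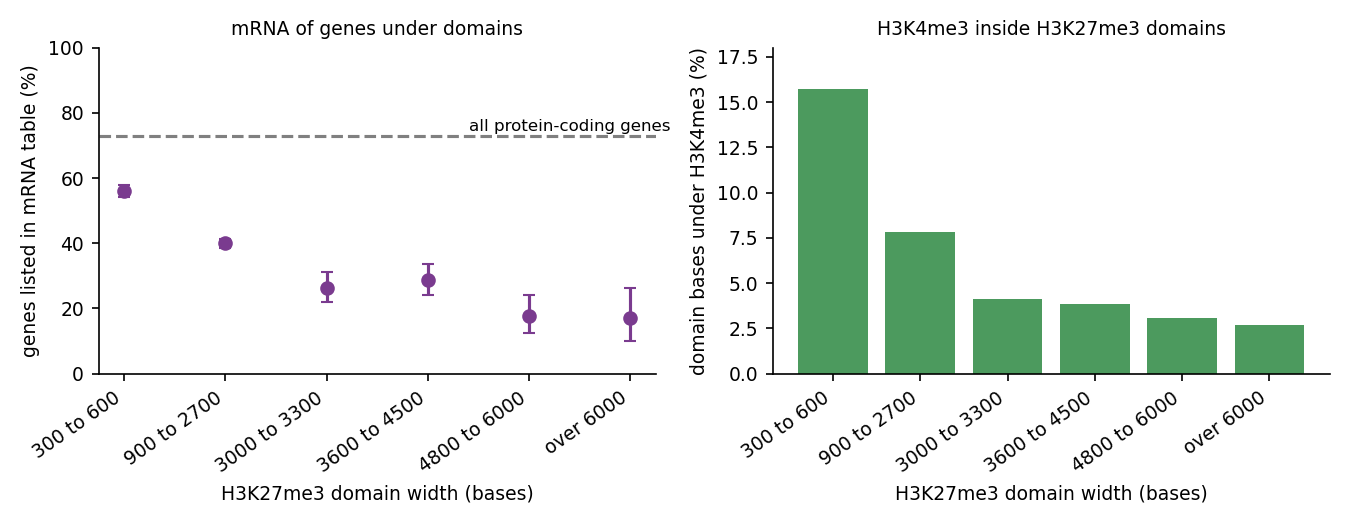
Share of protein-coding genes listed in the mRNA table (left, points with 95% exact intervals, dashed line for all protein-coding genes at 72.9%) and share of domain bases under H3K4me3 (right), by H3K27me3 domain width. The listed share goes from 56.1% to 17.0% and the H3K4me3 share from 15.7% to 2.67%.

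Cover of the gene body differed along with domain width. Among genes wholly inside 1 domain, 16.6% (13.6 to 19.9) of the 567 in wide domains were listed and 14.7% (12.6 to 17.0) of the 1050 in narrower domains. Gene length differed between these groups, at medians of 1294 and 929 bases. Within length classes the shares were 7.36% and 11.3% below 1000 bases, 15.1% and 17.7% from 1000 to under 1500, 22.9% and 17.6% from 1500 to under 2000, and 25.7% and 32.4% from 2000 to under 3000. Neither group was higher throughout, and the intervals overlapped in each class. Where listed, the wholly covered genes had a median depth of 1.53 in wide domains and 1.07 in narrower ones, both near the lowest value. The median was also higher in wide domains in each of these length classes. Among the genes under wide domains, 37.9% of the 87 with less than 50% of the body covered by them were listed, 34.7% of those with 50% to just under 100%, and 16.6% of those wholly covered.

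**Figure D3:**
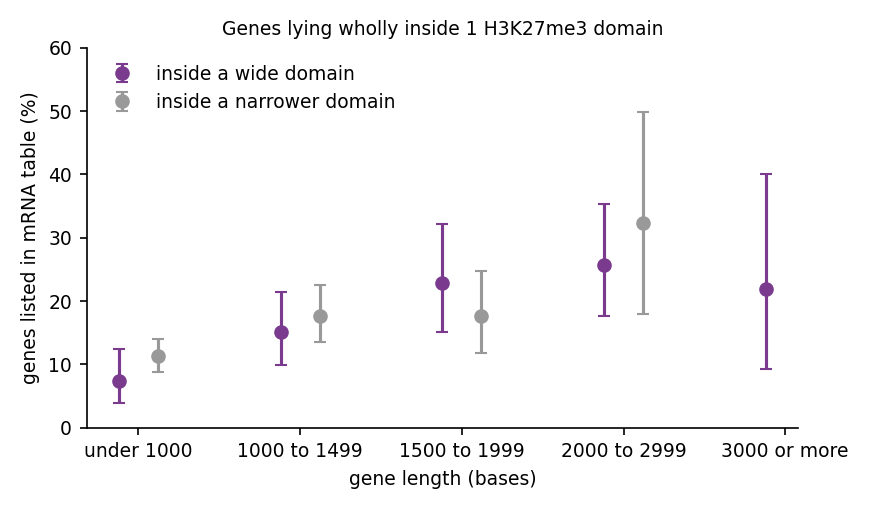
Share of genes listed in the mRNA table among genes whose whole body lies inside a single H3K27me3 domain, by gene length, for wide domains and narrower ones (points with 95% exact intervals). The intervals overlap in the 4 length classes that hold both kinds, and 32 genes of 3000 bases or more lay in wide domains only, since a narrower domain cannot hold them.

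The genes of highest depth under wide domains included enzymes of leaf defence. TGG1, a myrosinase that releases toxic products from glucosinolates, had a depth of 1029 and lay wholly inside a domain of 5700 bases (chr5:9078601-9084300) without H3K4me3. Its neighbour TGG2, also a myrosinase, was listed at 371, and the next wide domain (chr5:9071401-9075600) covered 94.2% of it. Myrosinases are known from a few leaf cell types, the guard cells and the myrosin cells of the phloem. Whether mark and transcript lay in the same cells was not tested.

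A domain of 4200 bases on chromosome 1 (chr1:25444801-25449000) held the neighbours AT1G67865 at a depth of 383 and AT1G67860 at 65.7. AT1G23130 followed at 375 and MLP28, which encodes a major latex protein-like protein, at 93.3, both wholly covered and without H3K4me3. The fifth among wholly covered genes, AT4G29020 at 54.8, carried 450 bases of H3K4me3. Other genes in the top 10 were touched only in part. RGP2, a reversibly glycosylated protein gene with a depth of 69.5, had 22.2% of its body under the domain and 1500 bases of H3K4me3. ALDH3F1, an aldehyde dehydrogenase gene at 60.5, had 19.3% and 1350 bases, and PME44, a pectin methylesterase gene at 59.2 that overlaps another gene, had 46.3% and 600 bases. With narrower domains included, H3K27me3 took 2528 of the 4160 bases of PME44.

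**Figure D4:**
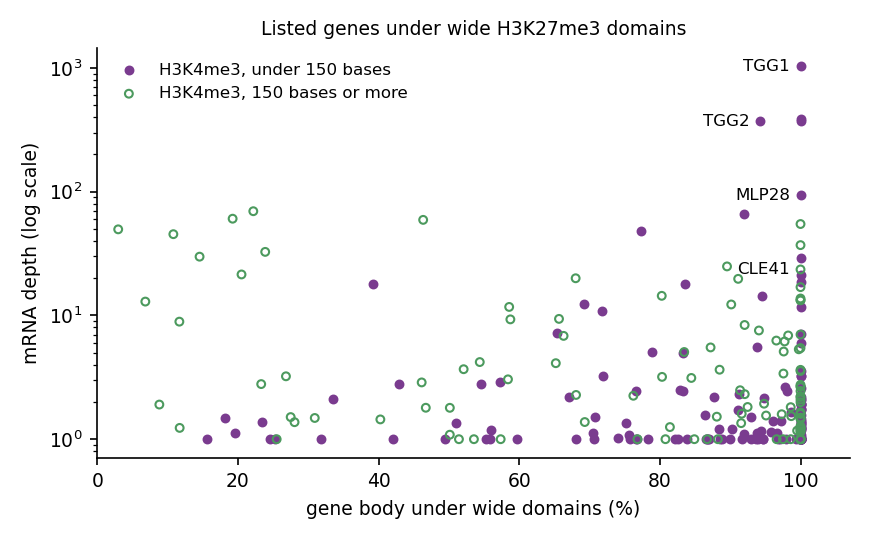
mRNA depth (log axis) of the 256 listed genes under wide H3K27me3 domains against the share of the gene body they cover, open for genes with at least 150 bases of H3K4me3 and filled for the rest. Most points lie near the lowest depth of 1, and TGG1 stands highest at 1029 with its whole body covered.

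H3K4me3 was sparse inside wide domains but not missing. It touched 221 of 875 (25.3%, 22.4 to 28.3), against 19.1% of all H3K27me3 domains, most of which are shorter. By bases, 3.6% of the wide domains lay under H3K4me3, compared with 7.82% for domains of 900 to 2700 bases, 15.7% for those of 300 to 600 and 12.6% of the whole span. The share was 3.63% in the arms and 3.41% in pericentromeres. In all, 270 H3K4me3 domains touched wide domains, with a median width of 450 bases, and 264 of them lay wholly inside. With only the H3K4me3 domains at or above the median score of their list, 12 wide domains (1.37%, 0.711 to 2.38) were touched, beside 3.72% of domains of 900 to 2700 bases and 5.02% of all H3K27me3 domains. The score rises with width, and the median width of all H3K4me3 domains was 750 bases.

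Of the 1026 genes under wide domains, 233 (22.7%, 20.2 to 25.4) carried at least 150 bases of H3K4me3, against 64.4% of all protein-coding genes and 34.1% of the genes under narrower domains only. Cover of the gene body was not matched in this comparison. Among genes wholly inside 1 domain the order was reversed, with H3K4me3 on 108 of 567 (19.0%) in wide domains and 140 of 1050 (13.3%) in narrower ones. By gene length, the share was higher in wide domains in each class below 2000 bases and lower from 2000 to under 3000. Of the 233 genes under wide domains with H3K4me3, 114 were listed (48.9%, 42.3 to 55.5), and of the 793 without H3K4me3 142 were listed (17.9%, 15.3 to 20.8). The most H3K4me3 lay in a domain of 4500 bases (chr3:7803601-7808100) with 2850 bases over AT3G22125 and AT3G22142, which overlap each other. LRX2, a leucine-rich repeat extensin gene of the cell wall, followed with 2243 bases over its 2361-base body and a depth of 1.20. The remaining 3 of the 5 domains with the most H3K4me3 had 1950 bases each and held pseudogenes but no protein-coding gene.

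Next, 9 lists with 96 genes were counted, 7 of regulators and auxin genes, 1 of triterpene cluster genes and 1 of photosynthesis genes. Wide domains covered 32 of the 96 (33.3%), beside 3.74% of all protein-coding genes. Some H3K27me3 domain covered 83 of them, beside 31.0% of all protein-coding genes. With a limit of 4500 bases the shares were 14.6% of the list and 1.29% of all genes, and with gaps of 300 bases joined 54.2% and 7.92%. Many of these genes are textbook Polycomb targets, and the count describes the lists only. Of 15 floral identity genes 7 were under wide domains, all without H3K4me3. AG, which specifies stamens and carpels, lay wholly inside a domain of 6600 bases (chr4:10382401-10389000) with a depth of 1.41. AP1, which gives floral meristems and sepals their identity, shared a domain of 9300 bases (chr1:25977001-25986300) with AT1G69090 and AT1G69100, and none of the 3 was listed. PI, SEP2 and CAL were also under wide domains and unlisted, while SEP3 and STK stood at 1.00, STK with an overlapping gene. The other 8, among them AP3, UFO, LFY and SHP2, were marked by narrower domains only.

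Of 9 meristem and boundary genes 5 lay under wide domains: STM, the class I KNOX gene of the shoot meristem, with 99.5% of its body in 5400 bases (chr1:23058601-23064000), KNAT2, KNAT6, the stem cell gene WUS and the boundary gene CUC2. KNAT6 had a depth of 1.38, KNAT2 1.00, and STM, WUS and CUC2 were unlisted, and H3K4me3 took 450 bases on WUS and on CUC2 and 300 on KNAT6. Of 9 seed and embryo regulators 4 lay under them, FUS3 (1.22), ABI3, BBM and MEA, the last 3 unlisted. Of 10 root regulators 5 did, namely PLT1, PLT2, PLT3 (AIL6 in the gene table, 1.79, with an overlapping gene), WOX11 and RSL4.

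In the leaf polarity list 5 of 14 genes lay under wide domains, and 4 of the 5 were listed in the mRNA table. FIL (AFO in the gene table), a YABBY factor of the lower leaf side, was listed at 12.3. A domain of 3900 bases (chr2:18628501-18632400) covered 90.2% of its body, and H3K4me3 took 900 bases of it. YAB3 had 11.7, YAB2 7.15 and KAN2 4.11, with 58.6%, 65.4% and 65.2% of the body covered by wide domains. With narrower domains included, H3K27me3 took 2676 of 3032 bases on YAB3, 3224 of 4012 on YAB2 and 4830 of 5130 on KAN2. H3K4me3 took 1050 bases on YAB3 and on KAN2 and none on YAB2. INO, the ovule member of the YABBY family, was wholly covered and unlisted. These 4 listed genes act in leaves, the tissue sampled. None of the HD-ZIP III genes REV, PHB and PHV, which act on the upper leaf side, lay under any H3K27me3 domain.

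Among the remaining lists, wide domains covered 2 of 7 flowering time genes, 2 of 15 auxin genes, 2 of 7 triterpene cluster genes and 0 of 10 photosynthesis genes. FLC, the repressor of flowering before winter, had 3300 of its 6067 bases under a wide domain (chr5:3176101-3179400), 300 bases of H3K4me3 and a depth of 4.20. H3K27me3 domains of any width took 5400 bases of FLC. TFL1, which keeps the inflorescence meristem indeterminate, was wholly covered at 1.22. The auxin synthesis genes YUC1 and YUC4 were wholly covered and unlisted, and the PIN carriers were under narrower domains only. The mRNA was checked against the tissue label, and the photosynthesis genes had depths from 538 (GLDP1) to 22244 (CAB1). The median depth of all listed protein-coding genes was 6.92. In the floral and root lists, all genes but SEP4 and SCR were below that median or unlisted. In the floral list SEP4 stood at 9.76, SHP1 at 4.43, AG at 1.41, FUL at 1.02 and SEP1, SEP3 and STK at 1.00, and the other 8 were unlisted. In the root list SCR stood at 11.7, SHR at 4.40, PLT5 at 1.93 and PLT3 at 1.79, and the other 6 were unlisted.

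Families defined by gene names were counted next. They were chosen after their values were seen, so the intervals describe these families only. Of 21 families, the largest shares were found for AT-hook nuclear localized proteins (AHL, 7 of 29, 24.1%, 10.3 to 43.5), TCP factors (5 of 22, 22.7%, 7.82 to 45.4) and homeobox factors (16 of 91, 17.6%, 10.4 to 27). GATA factors followed with 5 of 29, NAC factors with 13 of 99, MYB factors with 15 of 125 and WRKY factors with 8 of 72. H3K27me3 of any width covered 66.4% of MYB, 61.5% of homeobox, 55.2% of AHL and 54.5% of NAC genes. For WRKY, TCP and GATA genes it was 52.8%, 40.9% and 34.5%. Of the marked genes, wide domains covered 12.1% over all genes, 18.1% (MYB) to 55.6% (TCP) in these families, and 8.33% among lateral organ boundary domain factors. Of the 234 cytochrome P450 genes 144 (61.5%) carried H3K27me3, beside 31.0% of all protein-coding genes, and 13 lay under a wide domain (5.56%, 2.99 to 9.31), an interval that holds the share of all genes. Of the 64 UDP-glycosyltransferase genes 34 carried the mark and 1 lay under a wide domain. None of the SAUR, glutathione transferase, cysteine-rich receptor-like kinase, Aux/IAA, SPL or ribosomal protein genes was under a wide domain. The upper limit of the interval was above 3.74% in each of these 6 families, from 4.51% for SAUR to 18.5% for SPL.

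Members of these families under wide domains were unlisted or low in mRNA depth, with few exceptions. The 7 AHL genes, which include ESC, SOB3 and AHL22, were all unlisted, and 6 of them carried 450 to 1050 bases of H3K4me3. The TCP members were TCP1 (1.00), wholly inside a domain of 8700 bases, TCP12 (1.5), BRC1, the unlisted repressor of branching, TCP17 (2.45) and TCP5 (5.52, with 1050 bases of H3K4me3). The highest depth among MYB members was 1.32, for MYB84, and among NAC members 1.73, for NAC007. The NAC members included VND1 (1.00), VND7 (1.47) and NST1, which direct the thickening of xylem and fibre cell walls. Wide domains covered 18.2% of the body of VND7, and H3K27me3 domains of any width 2390 of its 3290 bases. The MYB members included MYB46, which acts below these NAC factors, at 1.21. An exception was CLE41, a peptide gene of the phloem and vascular meristem, at 23.5, wholly covered and with 450 bases of H3K4me3.

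**Figure D5:**
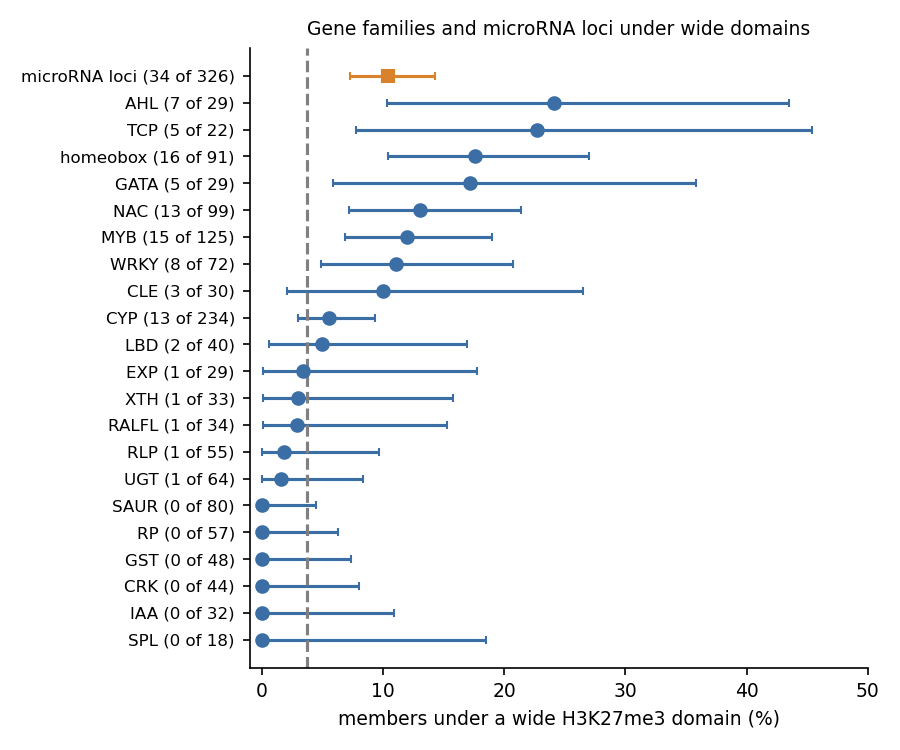
Share of the members of 21 gene families, and of microRNA loci, under wide H3K27me3 domains, with 95% exact intervals and a dashed line at the 3.74% of all protein-coding genes. The whole interval lies to the right of the line for microRNA loci and for 7 families of regulators (AHL, TCP, homeobox, GATA, NAC, MYB and WRKY), and 6 families lie at 0. Families and microRNA loci were chosen after their values were seen.

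MicroRNA loci were counted in the same way. Wide domains covered 34 of 326 annotated microRNA loci (10.4%, 7.33 to 14.3), beside 3.74% of protein-coding genes, 4.22% of long noncoding RNA loci and 1 of 625 tRNA loci. With a limit of 4500 bases 4.91% of microRNA loci and 1.29% of protein-coding genes lay under the domains. Any H3K27me3 domain covered 31.3% of the microRNA loci and 31.0% of the protein-coding genes. The 34 loci lay in 27 domains and are not independent, because some are tandem copies. In 17 of the 27 domains no protein-coding gene was present.

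All 3 loci of MIR319 lay under separate wide domains with no protein-coding gene: MIR319a (chr4:12351601-12355200), MIR319b (chr5:16658701-16661700) and MIR319c (chr2:17028301-17032200). Their product cuts the mRNA of class II TCP factors of leaf growth. The targets TCP2, TCP3 and TCP4 carried no H3K27me3 and had depths of 52.4, 14 and 25.4. MIR156a, MIR156b and MIR157a, which keep SPL factors low in juvenile plants, were covered too, as 2 of 10 MIR156 and 1 of 4 MIR157 loci. MIR157a lay in 7200 bases with no protein-coding gene (chr1:24912001-24919200), and none of the 18 SPL genes was under a wide domain.

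Clustered microRNA copies shared domains. MIR399d, MIR399e and MIR399f, which encode miR399, the phosphate starvation microRNA that IPS1 sequesters, lay together under 5400 bases (chr2:14442301-14447700). MIR169k to MIR169n lay under 5700 bases (chr3:9873301-9879000), with depths of 4.68, 1.00 and 5.16 for the first 3, while MIR169n was unlisted. Reads of such near-identical copies can be split between them, so these depths are uncertain. MIR858a and MIR858b, which target MYB factors, shared 3300 bases (chr1:26771401-26774700). MIR160b, MIR172d and MIR394a were covered as single copies. The 5 MIR854 loci, all of them pericentromeric, lay in 5 wide domains, among them one of 18600 bases (chr5:11930101-11948700). Of the 34 loci, 4 were listed in the mRNA table (11.8%, 3.3 to 27.5), all of them MIR169 copies, beside 16.3% of all microRNA loci.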

How the data were processed

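Per the submitters' processing notes, Bowtie, SICER and TAIR10 were used, without versions or settings. Whether replicates were pooled for the domain lists, and how input was used, is not stated. Each mark has 1 deposited list, in which every domain carries a whole-number score whose unit is unstated, so scores were compared only within a list. The deposited mRNA table holds an exon coverage signal per gene, a mean depth of reads whose scaling is unstated. The plan had foreseen protein and promoter sequences, which were not used here, so related neighbouring genes and promoter motifs were not analysed.

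Domain positions count from 1 in TAIR10. Gene bodies and types came from the RefSeq table of TAIR10.1. To compare the builds, H3K4me3 domains were moved along each of the 5 chromosomes by up to 10 kb, 50 bases at a time, and overlapped gene bodies most at 0. Of 20764 mRNA loci, 87 matched no nuclear locus. Overlap counts were checked on simulated intervals and equalled direct counts in 20 of 20 trials. Python 3.11.15, pandas 2.3.3, numpy 2.4.6 and scipy 1.17.1 were used.

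Samples were grouped by title. The members and lists were chosen with earlier results of these data known. Named genes are those of the 10 widest domains overall and outside pericentromeres, of the 5 domains with the most genes or H3K4me3, the 10 deepest, the 5 deepest wholly covered, and list members, of which some are named. The 21 families, microRNAs and genes named from them were chosen after their values were seen; 1 other family is not reported here. No alternative had replicates to leave out.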

Additional observations from a re-analysis of the deposited data

How the results depend on the processing

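No paired analysis was possible because the domain lists hold no value per replicate and no result comes from a test. Members in pericentromeres, 9.71% as reported, were 13.7% with domains of 4500 bases or more, and 6.97% and 14.2% with limits of 20% and 40% of gene cover. Domains with a gene, 82.2% as reported, were 78.1% when 50% of the gene body had to be covered and 86.2% with gaps of 300 bases joined. H3K4me3 touched 22.2% of domains of 2400 bases or more and 1.37% when its own domains had to reach the median score, against 25.3%. Genes listed in the mRNA table, 25% as reported, were 18.7% with domains of 4500 bases or more, 28.7% with gaps joined, 28.8% among genes with an older clone-based name (77.8% over all such genes) and 10.1% at a depth of 2 or more (58.0% over all genes). List genes under wide domains, 33.3% as reported, were 45.8% at 2400 bases, 14.6% at 4500 and 54.2% with gaps joined, and microRNA loci, 10.4% as reported, were 14.4%, 4.91% and 15.3%. Under the same 3 settings 6.26%, 1.29% and 7.92% of all protein-coding genes were covered. The cause of these shifts was not tested, beyond the number of domains that each setting admits. Joined gaps and the settings for lists and microRNAs were in part chosen after seeing the data. All other alternatives stayed within the interval of the reported value. The planned settings for neighbouring proteins and promoter motifs were not run. Unknown read depth limits what can be said of genes that are not listed.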
